A study of Mus musculus with 8 samples.

Results

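Xcl1 and the CC chemokine genes Ccl1, Ccl3, Ccl4 and Ccl5 were followed across stimulation of mouse CD8+ T cells through the T cell receptor (TCR), with and without interferon beta (IFNβ). They were taken as every non-control row of the scanner files whose gene name was one of these symbols. This gave 6 probes for 5 genes, out of 41174 probes on the array, and all 5 genes were among the 19919 that passed the filter on dim probes. The samples were splenic CD8+ T cells of OT-I TCR transgenic mice on the C57BL6 background, whose T cells are specific for SIINFEKL, a peptide of ovalbumin, when H-2Kb presents it. Stimulation was with SIINFEKL streptamers, multimers of peptide-loaded H-2Kb, so no antigen-presenting cell was added. Every group carried the OT-I receptor, and no group of non-transgenic cells was included. Total RNA was measured on 8 single-colour Agilent arrays. The groups were untreated cells (2 arrays), IFNβ alone for 2 h, IFNβ alone for 7 h, TCR for 1 h, TCR for 6 h, IFNβ for 1 h followed by TCR for 1 h, and IFNβ for 1 h followed by TCR for 6 h (1 array each). The labels give no IFNβ dose, no number of mice and no statement on pooling. The comparisons ask how type I interferon alters the response of these cells to their antigen.

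Chemokines are small secreted proteins that guide cells through G protein-coupled receptors on the surface of the cells they attract. Ccl3 and Ccl4 (MIP-1α and MIP-1β) draw T cells, monocytes and immature dendritic cells, and Ccl3 acts on Ccr1. Ccl5 (RANTES) acts on Ccr1 and Ccr3, and memory CD8+ T cells are known to keep its mRNA in store. Xcl1 (lymphotactin) is the C chemokine of activated CD8+ T cells and NK cells, and its receptor Xcr1 marks the dendritic cells that cross-present antigen. Ccl1 is the ligand of Ccr8, a receptor found on regulatory and skin-homing T cells. Type I interferon is made early in virus infection and can reach a T cell before, during or after it meets antigen.

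On this array Xcl1 and Ccl1 were each read by 1 probe, and the probe sequences are shown because these are the genes on which the comparison with IFNβ turned most. The Xcl1 probe starts at base 201 of its transcript and lies at chr1:166862020-166862079 on the minus strand of build mm9. The Ccl1 probe starts at base 277 of its transcript and lies at chr11:81990336-81990395 on the minus strand. Both are printed 5′ to 3′ in lower case, as the files give them.
Xcl1 probe: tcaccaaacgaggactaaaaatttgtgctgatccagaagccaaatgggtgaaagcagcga
Ccl1 probe: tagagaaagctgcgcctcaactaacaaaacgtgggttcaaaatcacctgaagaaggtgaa
The other CC chemokine probes also lie on chromosome 11 of mm9. The Ccl3 probe is at chr11:83461358-83461417 (minus strand) and the Ccl4 probe at chr11:83478052-83478111 (plus strand). The Ccl5 probes are at chr11:83339296-83339355 and chr11:83339447-83339502 (minus strand). All match transcript sequence, and the exon or UTR each lies in is not given in the sources used here.

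RefSeq upstream sequence (GRCm38.p6, a later build than that of the probes) was given for 3 of the 5 genes, and is shown because Xcl1, Ccl1 and Ccl3 were all high after 6 h of TCR stimulation. Each line is the 250 bases before the transcription start site on the gene's own strand. The windows are chr1:164935523-164935772 for Xcl1, chr11:82179813-82180062 for Ccl1 and chr11:83649379-83649628 for Ccl3, each on the minus strand. Capitals mark matches to the consensus NF-kB site and the T-box core.
Xcl1 upstream: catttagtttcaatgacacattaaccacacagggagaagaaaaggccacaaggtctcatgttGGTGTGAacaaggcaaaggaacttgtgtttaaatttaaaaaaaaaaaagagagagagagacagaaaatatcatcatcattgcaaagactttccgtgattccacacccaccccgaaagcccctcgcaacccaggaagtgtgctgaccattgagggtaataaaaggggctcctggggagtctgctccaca
Ccl1 upstream: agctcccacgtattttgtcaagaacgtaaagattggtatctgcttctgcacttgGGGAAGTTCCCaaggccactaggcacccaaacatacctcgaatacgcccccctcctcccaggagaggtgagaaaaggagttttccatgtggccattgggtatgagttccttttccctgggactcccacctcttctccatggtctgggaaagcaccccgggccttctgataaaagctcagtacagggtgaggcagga
Ccl3 upstream: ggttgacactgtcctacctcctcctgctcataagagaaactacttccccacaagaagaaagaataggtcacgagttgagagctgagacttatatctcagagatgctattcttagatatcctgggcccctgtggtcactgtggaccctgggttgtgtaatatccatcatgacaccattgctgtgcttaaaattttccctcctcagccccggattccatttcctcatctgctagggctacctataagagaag
Motifs were searched on both strands, and the share of all 32851 RefSeq windows of this length that hold each one gives the background. The NFAT core GGAAA was found once in Xcl1, 3 times in Ccl1 and 2 times in Ccl3, and 55.6% of all windows hold it. The capitals in Ccl1 are overlapping matches to the consensus NF-kB site, 1 on each strand, which 7.25% of windows hold. The shorter form GGGNNTTCC (4.98% of windows) was found in none of the 3. The capitals in Xcl1 are a match to the T-box core TCACACC on the reverse strand, starting 188 bases before the start site, which 3.33% of windows hold. None of the 3 windows held the AP-1 form TGANTCA (6.75% of windows), the consensus interferon-stimulated response element (0.146%), the gamma-activated sequence TTCNNNGAA (7.02%), the CRE TGACGTCA (1.55%) or the EGR form GCGNGGGCG (4.70%). A short form of that element, GAAANNGAA, left in lower case above, was found once in Ccl1 and once in Ccl3, and 7.13% of windows hold it. The forms searched were settled with these windows in view. The searches are descriptions of these letters in these windows and carry no test.

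Levels are given below as scaled signal, the background-subtracted intensity on a linear scale after each array was set to a 75th percentile of 1500. The 8 arrays lay on 2 slides of 4. The first slide held an untreated array, IFNβ 2 h and both TCR 1 h arrays, and the second held the other untreated array, IFNβ 7 h and both TCR 6 h arrays. Between 26065 and 29533 spots per array were well above background, and the number of arrays limits the precision. In the 2 deposited sources, the scanner files and the series value table, TCR 1 h and IFNβ with TCR 1 h carry each other's identity. The value table's naming is used here. Under it Ifit1, an antiviral gene induced by type I interferon, had a scaled signal of 150994 on the array named IFNβ with TCR 1 h and 633 on the array named TCR 1 h, against 123378 and 100447 on the arrays with IFNβ alone and 568 and 570 on the untreated arrays. This naming was settled with such genes in view, so every IFNβ difference within the TCR 1 h pair below changes sign under the scanner files' naming, while its size does not change. The 10 CD8 T cell markers, Cd8a, Cd8b1 and Cd3e among them, were well above background on all 8 arrays.

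Xcl1 was low in cells without TCR stimulation and among the most strongly raised genes with it. Its scaled signal was 283 and 296 on the untreated arrays, 272 after IFNβ for 2 h and 342 after IFNβ for 7 h. It was 96362 after TCR for 1 h, 8958 after IFNβ with TCR for 1 h, 283594 after TCR for 6 h and 367121 after IFNβ with TCR for 6 h. All 4 arrays with TCR stood above all 4 without, and the share of all genes that do so was not counted. Within the 1 h pair the array with IFNβ was the lower.

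Ccl3 had the largest range of the chemokines followed here. Its scaled signal was 135 and 128 untreated, 195 after IFNβ for 2 h and 463 after IFNβ for 7 h. It was 196975 after TCR for 1 h, 58776 after IFNβ with TCR for 1 h, 270066 after TCR for 6 h and 319000 after IFNβ with TCR for 6 h. Here too the 4 arrays with TCR did not overlap the 4 without, and again the share of all genes was not counted.

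Ccl4 already had a signal of 10551 and 7459 on the untreated arrays, and 15452 and 10348 after IFNβ alone for 2 h and 7 h. TCR stimulation for 1 h gave 367665, and 164439 with IFNβ. At 6 h the values were 551439 without IFNβ and 552484 with it, and these differed by less than the untreated arrays did from each other. The untreated pair of Ccl4 differed by 0.50 on the log2 scale, more than for any other gene of the set.

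Ccl1 was dim. It was well above background on 4 of 8 arrays, namely 1 untreated array (29.1), TCR 1 h (137), TCR 6 h (572) and IFNβ with TCR 6 h (1249). The remaining values were 24.7 on the other untreated array, 15.7 and 16.6 after IFNβ alone for 2 h and 7 h, and 20.6 after IFNβ with TCR 1 h, none of them well above background. The scanner software's own error reached 41.2% of the signal on these dim spots, against about 10% for the other chemokines. On the TCR 1 h pair, the array without IFNβ was the only one on which Ccl1 was measured above background.

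Ccl5 differed from the others in that it was bright everywhere and moved little. The brighter of its 2 probes gave 36893 and 35827 untreated, 49488 and 64885 after IFNβ alone, 41309 and 32888 after TCR 1 h without and with IFNβ, and 28620 and 42195 after TCR 6 h without and with IFNβ. The full range was 2.27-fold. The second probe ranged over 2.00-fold, from 9213 after TCR 6 h to 18451 after IFNβ 7 h, so the same arrays were lowest and highest on both probes. No spot of these 5 genes was saturated or marked as an outlier on any array.

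**Figure D1:**
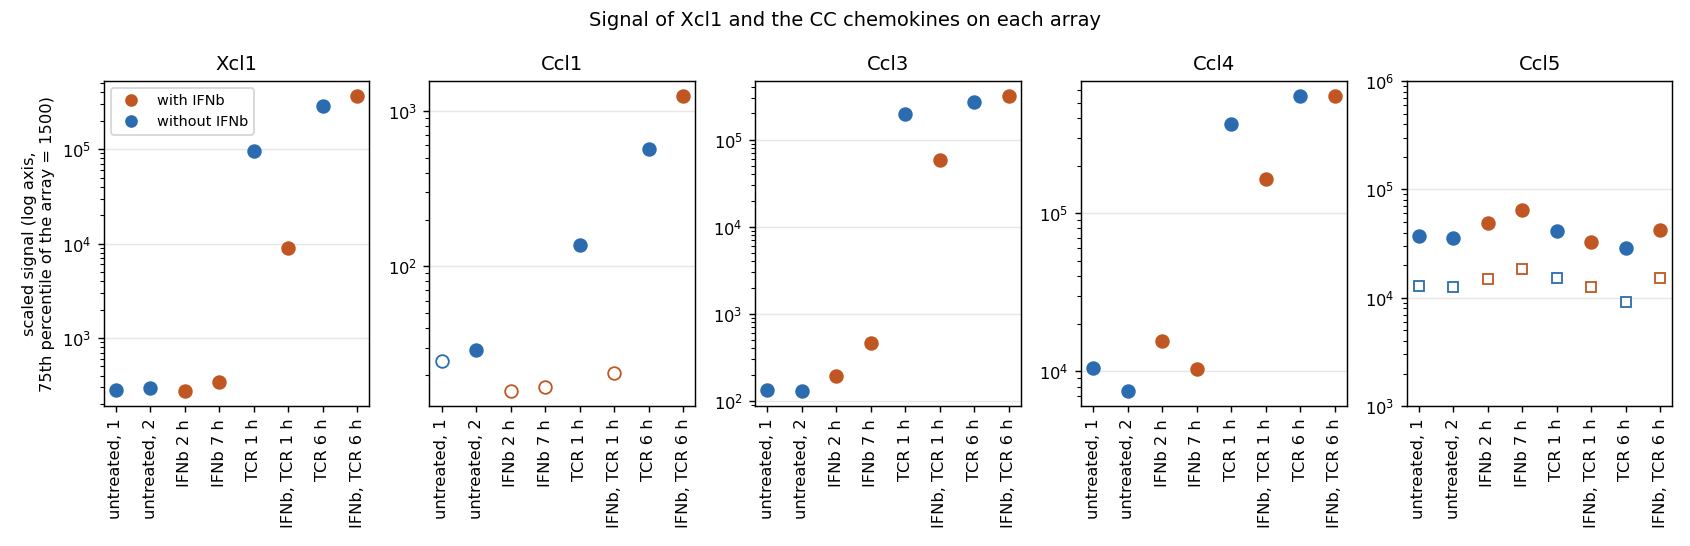
Scaled signal of each chemokine gene on each of the 8 arrays, on log axes that differ between panels; orange points had IFNβ and blue points did not, open circles were not well above background, and open squares are the second Ccl5 probe. Xcl1, Ccl3 and Ccl4 are high on the 4 arrays with TCR and lower with IFNβ within the 1 h pair; Ccl5 stays between 28620 and 64885 on its brighter probe.

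The spread between the untreated arrays was used to order the conditions. Over all genes the SD of their log2 difference was 0.36, so neighbouring levels closer than 0.73 (2 SD) are taken as within the spread. For Xcl1 the untreated and IFNβ-alone levels were within the spread, as were the 2 levels at TCR 6 h. The order IFNβ with TCR 1 h, TCR 1 h, TCR 6 h was separated by steps of 3.43 and 1.56. For Ccl3 and Ccl4, TCR 1 h and TCR 6 h lay within the spread (steps of 0.46 and 0.58), and IFNβ with TCR 1 h stood below TCR 1 h by 1.74 and 1.16. The Ccl3 level after IFNβ 7 h stood above that after IFNβ 2 h by 1.25. For Ccl1 the steps between measured arrays were 2.06 from TCR 1 h to TCR 6 h and 1.13 to IFNβ with TCR 6 h. Its TCR 1 h signal was 5.55-fold the value of the untreated array on which it was not well above background, which is no lower limit. No step between neighbouring levels of Ccl5 passed the spread. Levels further apart did, as Ccl5 after IFNβ 7 h stood 0.84 above untreated. Ccl4 after IFNβ 2 h stood 0.80 above untreated.

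After 1 h of TCR stimulation Ccl3, Xcl1 and Ccl4 rose. An additive model in limma estimated the TCR difference over arrays with and without IFNβ, from 2 arrays against 3 samples without TCR (the untreated arrays were averaged and counted as 1 sample). Ccl3 rose by a log2 of 8.89 ± 0.70 (SE, adjusted p = 0.0063), which was the largest fitted rise of 19916 genes. Xcl1 rose by 6.47 ± 0.83 (adjusted p = 0.020), 88.5-fold, and ranked 14. Ccl4 rose by 4.43 ± 0.42 (adjusted p = 0.0100), 21.5-fold, and ranked 53. Ccl1 had a difference of 1.34 ± 0.75 (adjusted p = 0.34) and Ccl5 of -0.35 ± 0.31 (adjusted p = 0.56), and neither passed. Thus 3 of 5 genes rose, where 2.46% of all genes tested did. Without the IFNβ 2 h array the adjusted p of Xcl1 was 0.070, without the IFNβ 7 h array it was 0.064, and without the TCR 1 h array that of Ccl4 was 0.066.

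The fitted difference mixes 2 arrays that differed for Xcl1. Against the untreated mean, the TCR 1 h array alone showed Xcl1 333-fold higher and the array with IFNβ showed it 30.9-fold higher. For Ccl3 these were 1498-fold and 447-fold, and for Ccl4 41.4-fold and 18.5-fold. Ccl1 was well above background on only 1 of the 2 TCR 1 h arrays, the one without IFNβ.

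After 6 h of TCR stimulation Ccl3, Xcl1 and Ccl4 rose, which are 3 of the 4 genes measured above background on all 8 arrays. Of all genes tested 22.1% rose, but these needed to be well above background on only 2 arrays. Ccl3 rose by 10.33 ± 0.70 (adjusted p = 0.00040) and Xcl1 by 9.92 ± 0.83 (adjusted p = 0.00052), the ranks 2 and 3 of 19917 genes. Ccl4 rose by 5.59 ± 0.42 (48.3-fold, adjusted p = 0.00046). Ccl1 passed as well (adjusted p = 0.0023), but of the 4 arrays without TCR only 1 had it well above background. It entered the test through the 3 arrays with TCR on which it was measured, so it is not counted with the others, and its fitted value of 5.34 ± 0.75 is no measured fold. Ccl1 was at 29.1 on the untreated array where it was well above background. After TCR 6 h it was at 572 without and 1249 with IFNβ. Against the dim spots' own values, its signal after TCR 6 h was 36.5-fold that after IFNβ 2 h and 34.4-fold that after IFNβ 7 h. For IFNβ with TCR 6 h these were 79.6-fold and 75.1-fold. The scanner error of these dim spots reached 41.2% of the signal, so the ratios are no lower limits. All of these calls held under each alternative that gave a value. Ccl5 had a difference of -0.44 ± 0.31 (adjusted p = 0.30). With quantile normalization its estimate was -1.17 and it passed (adjusted p = 0.012), and with normexp background correction before it -1.25 (adjusted p = 0.0033). Genes lower at TCR 6 h made up 22.6% of those tested, so 49.4% of the calls were higher. With each array scaled to its median instead, 62.7% of the calls were higher and the median of all genes was 0.37, against which the rises above remain large. The fitted Ccl1 value was 2.66 with normexp background correction, which adds an offset to dim spots. The TCR 1 h and TCR 6 h comparisons share their untreated and IFNβ-alone arrays.

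From 1 h to 6 h of TCR, Xcl1 rose further, by 3.46 ± 0.90 (11.0-fold, adjusted p = 0.031), where 16.3% of all genes tested were higher at 6 h. Ccl1 also passed (fitted value 3.99 ± 0.81, adjusted p = 0.014), but its spot for IFNβ with TCR 1 h was not well above background, so that value is no measured fold. Ccl3 (1.45 ± 0.76, adjusted p = 0.19), Ccl4 (1.17 ± 0.46, adjusted p = 0.10) and Ccl5 (-0.08 ± 0.34, adjusted p = 0.86) did not pass. The TCR times lay on different slides. With slide as a block the estimates were 3.83 ± 1.15 for Ccl1 (adjusted p = 0.080) and 3.26 ± 1.31 for Xcl1 (adjusted p = 0.15), so both calls were lost. Both were also lost without the array for IFNβ with TCR 6 h (adjusted p = 0.053 and 0.17), and that of Ccl1 without the array for IFNβ with TCR 1 h (adjusted p = 0.067). Between single arrays the ratio of TCR 6 h to TCR 1 h was not the same in the 2 arms. Without IFNβ it was 2.94-fold for Xcl1, 1.37-fold for Ccl3 and 1.50-fold for Ccl4, and with IFNβ it was 41.0-fold, 5.43-fold and 3.36-fold. For Ccl1 it was 4.17-fold without IFNβ. With IFNβ it was 60.7-fold, a ratio to the own value of a 1 h spot that was not well above background.

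**Figure D2:**
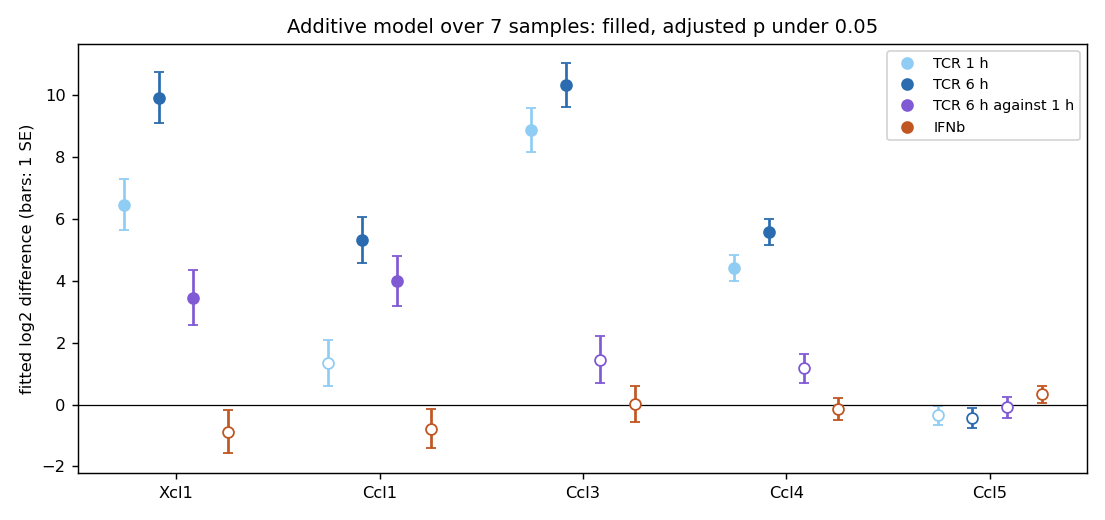
Fitted log2 differences of the additive model for each chemokine gene with bars of 1 SE, for TCR 1 h, TCR 6 h, TCR 6 h against 1 h, and IFNβ; filled points have an adjusted p under 0.05. Xcl1 and Ccl3 reach 9.92 and 10.33 at 6 h, Ccl5 stays near 0 throughout, and no point for IFNβ is filled.

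With IFNβ alone, Ccl3 stood above untreated at 7 h, and Xcl1, Ccl4 and Ccl5 stayed within 2-fold. Called here means a difference of at least 2-fold between single arrays, with no replicate behind it. After IFNβ for 2 h against the untreated mean, 0 of 5 genes reached 2-fold, where 15.3% of all genes did in either direction. Ccl1 is among the 5, but was not well above background on either array with IFNβ alone. After IFNβ for 7 h, Ccl3 did, at 3.52-fold higher, where 17.9% of all genes did. Ccl5 was 1.36-fold higher at 2 h and 1.78-fold higher at 7 h, and Ccl4 1.74-fold and 1.17-fold higher. Xcl1 was within 1.18-fold of untreated at both times. Summed signals of markers of some other cells differed on these 2 arrays. The summed signal of 7 measured B cell markers was 48096 and 40556 with IFNβ alone, against 15145 and 14797 untreated and 5255 to 13326 on the 4 arrays with TCR. Cd79b gave 20840 and 18753 of these with IFNβ alone, and Ms4a1 14767 and 12751. Ebf1 was not higher after IFNβ 7 h, at 66.0 against 94.6 and 70.5 untreated. Cd22 was then at 65.7 against 59.9 and 57.2. The summed signal of 8 NK cell markers, of which Gzma is also made by CD8+ T cells, was 8030 and 17506 with IFNβ alone. It was 3541 and 3460 untreated. Gzma alone gave 2929 and 12586 of these with IFNβ, and 538 and 518 untreated. Without it the 7 remaining NK markers summed to 5101 and 4920 with IFNβ alone, against 3004 and 2942 untreated. Of these, Klri2 was lower, at 29.4 and 23.6 against 37.8 and 42.6. Ncr1, a defining receptor of NK cells, was well above background on 2 of 8 arrays, at 33.1 and 52.7 after IFNβ alone. The sum of 4 dendritic markers was 3608 and 4096 against 2193 and 2343 untreated. Xcr1 alone gave 3006 and 3626 of these, and 1753 and 1877 untreated. Flt3 was higher at both times, but Itgax was lower after IFNβ 7 h, at 60.5 against 140 and 157 untreated. Zbtb46 was at 178 after IFNβ 2 h, against 188 and 205 untreated. The sum of 3 CD4 T cell markers was 357 and 346 against 267 and 256. That of 8 myeloid markers was 4969 after IFNβ 2 h and 2562 after IFNβ 7 h, against 4057 and 4166 untreated. Lyz2 gave 3339 and 1210 of these, and 2472 and 2539 untreated. The other myeloid markers went both ways, Adgre1 higher and Fcgr3 lower at both times. NK cells are a known source of Ccl3, Ccl4, Ccl5 and Xcl1. The part of these cells in the Ccl3 and Ccl5 values was not tested. In samples of bulk RNA, fewer cells of a type and less RNA per cell cannot be told apart.

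Within the TCR 1 h pair the chemokine genes were lower on the array named IFNβ with TCR. Xcl1 was 10.8-fold lower (log2 -3.43), which ranked 18 among 19819 genes from the lowest. Ccl1 was 6.68-fold lower (log2 -2.74), by the own value of a spot not well above background. The scanner error of that spot was 29.2% of its signal. Ccl3 was 3.35-fold lower (-1.74) and Ccl4 2.24-fold lower (-1.16), while Ccl5 was at -0.33. With normexp and quantile normalization the Ccl1 value was -0.84 and the Ccl3 value -1.35. Of the 4 genes measured above background on all 8 arrays, Xcl1, Ccl3 and Ccl4 were at least 2-fold lower. Among all genes, which needed to be well above background on only 2 arrays, 5.69% were. The median of all genes was -0.10. Ccl1 is not counted here, because its spot with IFNβ was not well above background. A lower level there was not limited to the chemokine genes. Of 558 genes at least 8-fold higher on the TCR 6 h array than untreated, 24.7% were at least 2-fold lower in this pair. In the same set 12.2% were at least 2-fold higher, near the 10.1% of all genes, and the median was -0.55. The set includes Xcl1, Ccl1, Ccl3 and Ccl4 themselves. Under the scanner files' naming each of these chemokine values has the opposite sign (3.43, 2.74, 1.74, 1.16 and 0.33). The summed signal of B cell markers was 13326 without and 12534 with IFNβ in this pair. The summed signal of 8 measured myeloid markers was 4193 and 2428, and of 4 dendritic markers 3558 and 2125. That of the NK markers went the other way, from 3470 without to 8719 with IFNβ, of which Gzma gave 583 and 6622. Without Gzma it was 2886 and 2097. The part of these cells in the chemokine values was not tested.

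After 6 h of TCR no chemokine gene was at least 2-fold lower with IFNβ, and Ccl1 was higher. Ccl1 was 2.18-fold higher with IFNβ (log2 1.13), Ccl5 1.47-fold higher, Xcl1 1.29-fold higher and Ccl3 1.18-fold higher. Ccl4 was at 0.003. Thus 1 of 5 genes was at least 2-fold higher, where 2.33% of all genes were. The summed marker signals of this pair were 5255 and 6018 for B cells and 2110 and 2650 for NK cells.

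No test of IFNβ passed for any of these genes. In the additive model the IFNβ difference, over 4 arrays with IFNβ against 3 samples without, was -0.89 ± 0.70 for Xcl1, -0.78 ± 0.63 for Ccl1, 0.03 ± 0.59 for Ccl3, -0.14 ± 0.36 for Ccl4 and 0.33 ± 0.26 for Ccl5. Adjusted p values lay between 0.77 and 0.99, and 0.0502% of all genes passed (10 of 19919, with 1706 at an unadjusted p under 0.05). An interaction model tested whether the IFNβ difference was the same with and without TCR, and had 1 residual degree of freedom. At TCR 1 h the interaction was -3.50 ± 0.51 for Xcl1 (adjusted p = 0.57), -2.94 ± 0.94 for Ccl3, -2.01 ± 0.46 for Ccl1, -1.67 ± 0.60 for Ccl4 and -0.97 ± 0.53 for Ccl5. At TCR 6 h it was 1.86 ± 0.46 for Ccl1 (adjusted p = 0.52), 0.30 ± 0.51 for Xcl1, -0.95 ± 0.94 for Ccl3, -0.51 ± 0.60 for Ccl4 and -0.08 ± 0.53 for Ccl5. In limma 0 genes passed either test, 0% of those tested, with 1515 and 1639 genes at an unadjusted p under 0.05. The IFNβ difference at TCR 6 h exceeded that at TCR 1 h by 3.86 ± 0.49 for Ccl1 and 3.80 ± 0.54 for Xcl1 (adjusted p = 0.35 for both), by 1.98 ± 1.00 for Ccl3, 1.16 ± 0.64 for Ccl4 and 0.89 ± 0.56 for Ccl5. Again 0 genes passed, 0% of those tested, with 1596 at an unadjusted p under 0.05. The Ccl1 estimates in these models include 4 arrays on which it was not well above background. Under the scanner files' naming this contrast was -1.61 for Ccl1 and -3.05 for Xcl1.

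**Figure D3:**
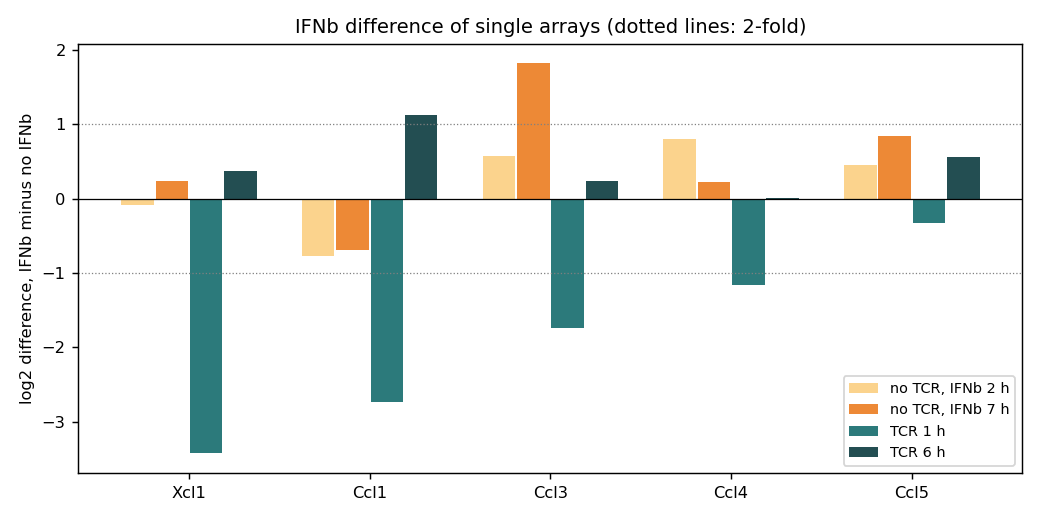
Log2 difference between single arrays with and without IFNβ for each chemokine gene: IFNβ alone for 2 h and 7 h against the untreated mean, and within the pairs at TCR 1 h and TCR 6 h; dotted lines mark 2-fold. The TCR 1 h bars run from -3.43 for Xcl1 to -0.33 for Ccl5 and would point up under the scanner files' naming, and the TCR 6 h bars run from 0.003 for Ccl4 to 1.13 for Ccl1.

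Genes with the most similar changes were found by the mean absolute log2 difference in change from untreated over the 6 treated arrays, among 14578 named genes. This measure is a description of these arrays. Nearest to Xcl1 was Il2, the T cell growth factor, at 0.37. Il2 changed by 8.65 after TCR 1 h, 4.56 after IFNβ with TCR 1 h, 10.54 after TCR 6 h and 10.22 after IFNβ with TCR 6 h, and Xcl1 by 8.38, 4.95, 9.94 and 10.31. Il3, a haematopoietic cytokine, followed at 0.83, and then Fosl1, an AP-1 subunit not well above background without TCR, at 1.09 and Spry1, a feedback inhibitor of receptor signalling, at 1.10. For Ccl1 the nearest were Bcl2l1, which encodes the survival protein Bcl-xL, at 0.39, H2al2a, a histone gene, at 0.49, Srm, the spermidine synthase, at 0.52 and Hilpda, a lipid droplet gene induced by hypoxia, at 0.53. Bcl2l1 changed by 2.25 and 0.13 at TCR 1 h without and with IFNβ, and by 4.71 and 4.60 at 6 h. On 3 of the 6 treated arrays, and on 1 of the 2 untreated arrays, Ccl1 was not well above background, so its distances rest partly on values that were not measured.

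Ccl3 had no close neighbour. F3, tissue factor, stood at 1.46, Ifng at 1.54, Il3 at 1.76 and Il2 at 1.79, while Ccl3 and Xcl1 stood 1.71 apart. Ifng, which encodes interferon gamma, was not lower with IFNβ at TCR 1 h (8.51 without and 8.89 with it), whereas Ccl3 went from 10.55 to 8.80. For Ccl4 the nearest genes were Spry4, of the same family as Spry1, at 0.31, Slamf1, a costimulatory receptor, at 0.39, Crtam, a surface molecule of activated CD8+ T cells, at 0.40 and Cdkn1a, the cell cycle inhibitor p21, at 0.48. Crtam showed the larger step within the TCR 1 h pair, 5.85 without and 3.51 with IFNβ, and Spry4 the smaller, 5.06 and 4.50. For Ccl5, which moved little, the nearest were Anapc13 (0.099), Smim8 (0.11), Wnk2 (0.11) and Nfkbil1 (0.12).

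**Figure D4:**
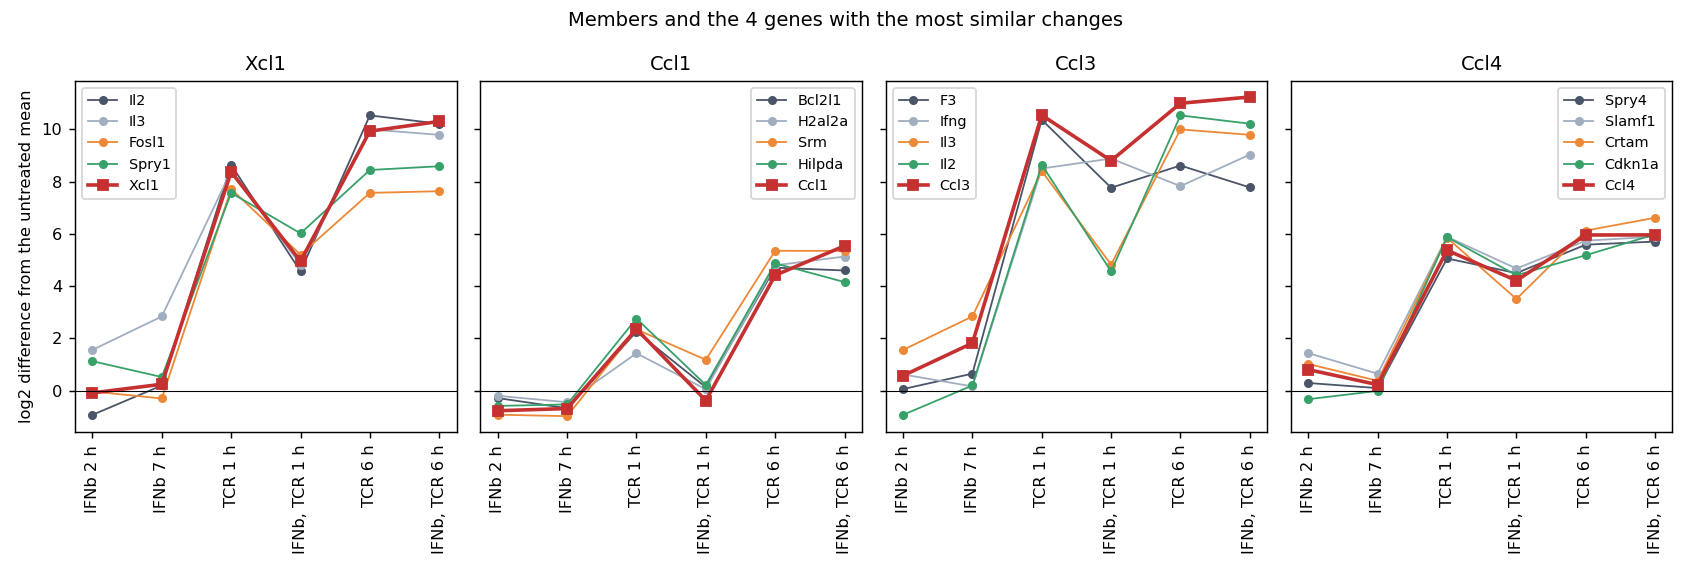
Log2 difference from the untreated mean on the 6 treated arrays for Xcl1, Ccl1, Ccl3 and Ccl4 (red squares) and the 4 genes nearest to each; the lines only join points of a gene. Il2 follows Xcl1 at a mean distance of 0.37, and Ifng is the gene in the Ccl3 panel that does not dip at IFNβ with TCR 1 h.

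Ccl9 and Ccl17 rose after 6 h of TCR among the other CC chemokine genes, measured on all 8 arrays. Of 17 further CC and C chemokine genes listed, 16 were on the array and 10 passed the filter. At TCR 1 h, 0 of 10 passed the limma test (0 at an unadjusted p under 0.05), with a median of 0.10, where 2.46% of all genes rose. At TCR 6 h, 4 passed upwards and 0 fell, where 22.1% of all genes rose and 22.6% fell, but 2 of the 4, Ccl22 and Ccl7, were not well above background on either untreated array. The others were Ccl9 (3.88), a myeloid attractant of the MIP-1 family, and Ccl17 (2.93), which with Ccl22 is a ligand of Ccr4. Ccl9 had a scaled signal of 375 and 402 untreated, 355 and 285 at TCR 1 h without and with IFNβ, and 7362 and 9052 at TCR 6 h. Ccl22 was well above background on 2 arrays only, those with TCR 6 h, at 52.7 and 37.1, and entered the test through them. The other arrays gave 3.51 to 6.69. Its signal after TCR 6 h was 7.40-fold and 14.4-fold the lowest signal well above background on the untreated arrays. Ccl17 was at 68.0 and 72.8 untreated and at 592 and 511 at TCR 6 h. Ccl7, a monocyte attractant, was well above background on 3 arrays, at 35.9 and 40.6 on those with TCR 6 h.

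Of 15 CXC and CX3C chemokine genes, 7 passed the filter, and at TCR 6 h 3 passed upwards and 1 downwards, where 22.1% of all genes rose and 22.6% fell. Cxcl9, a ligand of Cxcr3 that interferons induce, rose by 4.47 and was measured on all 8 arrays. Cxcl11, another such ligand, passed too, but was well above background on 5 arrays and on neither untreated array. Cxcl2, a neutrophil attractant, passed downwards but was well above background on only 2 arrays, neither of them with TCR 6 h. At TCR 1 h 0 of 7 passed in limma, 1 of them at an unadjusted p under 0.05.

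Of 6 listed receptors of these chemokines, 5 passed the filter. The limma test was passed by 1 of 5 at TCR 1 h, where 2.46% of all genes rose, and by 1 of 5 at TCR 6 h, which is near the 22.1% of all genes. Both were Ccr8, the receptor of Ccl1, with fitted values of 2.42 ± 0.32 at 1 h (adjusted p = 0.022) and 1.32 ± 0.32 at 6 h (adjusted p = 0.018). Ccr8 was dim. Its scaled signals were 18.6 and 22.2 untreated, 10.8 and 5.78 after IFNβ alone for 2 h and 7 h, 98.9 and 45.6 at TCR 1 h and 50.5 and 19.5 at TCR 6 h without and with IFNβ. It was well above background on the 4 arrays with TCR and on 1 without, so the fitted values rest partly on spots that were not measured, and at 6 h the array with IFNβ lay between the untreated ones.

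**Figure D5:**
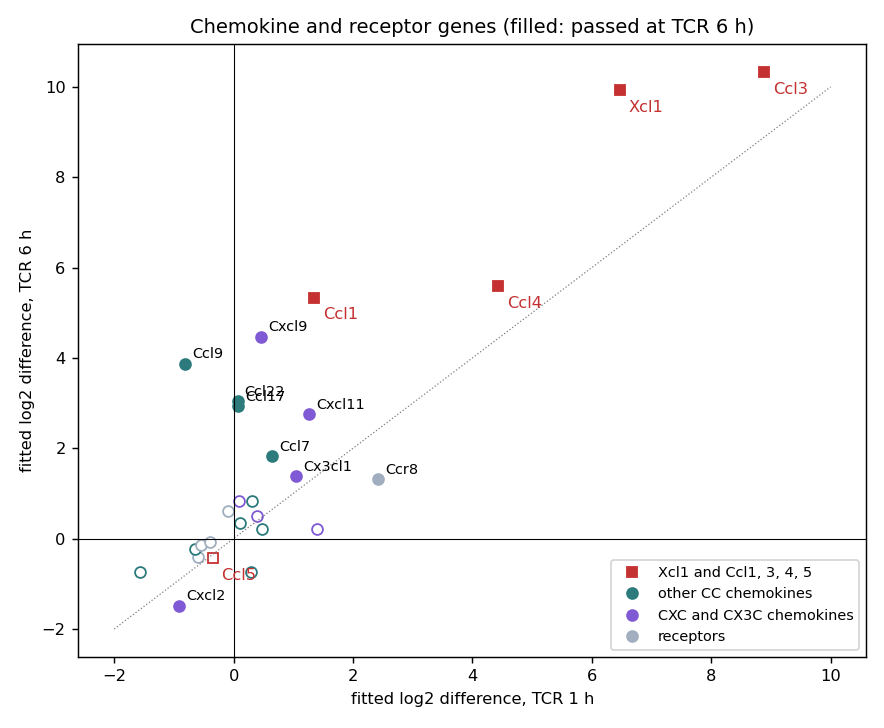
Fitted log2 difference at TCR 1 h against that at TCR 6 h for the chemokine genes followed here (red squares), the other CC, CXC and CX3C chemokine genes and the chemokine receptors, with the line of equal change dotted; filled points passed at TCR 6 h. Ccl3, Xcl1 and Ccl4 lie far to the right, Ccl9 and Cxcl9 near the left edge above 3.8, as is Ccl1, whose fitted value includes spots not well above background.

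All 25 listed transcription factors that have been linked to chemokine genes passed the filter. At TCR 1 h, 9 rose and 0 fell, with a median of 0.90, where 2.46% of all genes rose. At TCR 6 h, 13 rose and 6 fell, with a median of 0.95, where 22.1% of all genes rose and 22.6% fell, so the share that fell was near that of all genes. Irf4, which supports effector differentiation, rose by 5.47 at 6 h and Bhlhe40, a regulator of T cell cytokine output, by 5.38. Fosl1 is among the 13, but it was well above background only on the 4 arrays with TCR, through which it entered the test. Its signal was 3807 and 3976 at TCR 6 h without and with IFNβ, against 27.3 and 14.7 untreated and 19.5 and 16.2 after IFNβ alone. Without IFNβ at 6 h it was thus 140-fold and 259-fold the untreated arrays' own values, which were not well above background. From 1 h to 6 h, 1 of the 25 rose and 9 fell, where 3243 of all 19914 genes tested rose and 3081 fell. Klf13, known as a late activator of Ccl5 in T cells, fell by 2.16 at TCR 6 h (adjusted p = 0.0030). It is named for that role and was picked after its value was seen. Its part in the Ccl5 values was not tested.

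Of 8 factors that act on mRNA stability, 3 rose and 0 fell at TCR 1 h (median 0.64), where 2.46% of all genes rose. At TCR 6 h 3 rose and 0 fell (median 0.41), where 22.1% of all genes rose and 22.6% fell. At 6 h these were Elavl1 (1.75), which stabilises AU-rich transcripts, Zfp36l1 (1.74), which promotes their decay, and Hnrnpd (1.55), an AU-rich element binding protein. Of 10 genes for cytotoxic granules and secretion, 1 rose at TCR 1 h (median 1.12), where 2.46% of all genes did. At TCR 6 h 6 rose and 2 fell (median 1.62), where 22.1% and 22.6% of all genes did, so the share that fell was near that of all genes. Gzmc and Gzmb, granzymes of activated killer cells, rose by 6.68 and 4.54, and Gzma fell by 3.86. For IFNβ, 0 of the 65 genes in these 6 lists passed in limma, where 0.0502% of all genes did. Of the 65, 13 had an unadjusted p under 0.05. Not passing here does not mean no change. Cxcl10 was at 625 and 612 untreated, and at 39665 and 192851 after IFNβ alone for 2 h and 7 h. Its fitted IFNβ difference was 5.08 ± 1.01 (adjusted p = 0.27 in limma). It was picked after its value was seen.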

How the data were processed

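Messenger RNA was measured on 8 single-colour arrays. Per the file headers, the authors' scanner files hold intensity made with Agilent Feature Extraction 10.7.3.1 (9.5.3.1 per the submitters' processing notes), background-subtracted and detrended within each array, in build mm9. The deposited series values are the same intensity times 1 factor per array, which tied its columns to the scanner files. Processed signal was taken as log2 and each array scaled to its 75th percentile. Outlier spots were left out, repeated spots averaged, only probes well above background on 2 or more arrays kept, and the brightest probe of a gene used. The untreated arrays were averaged as 1 sample, so no condition had a second sample. Standard errors and p-values therefore measure how far single arrays depart from the model, which includes IFNβ differences that are unequal between conditions. They measure no spread between replicates, and the departure may in part be technical. Models were fitted with limma 3.58.1 (R 4.3.3) over 7 samples, with 3 residual degrees of freedom (additive) or 1 (interaction, where both IFNβ-alone arrays share a mean), and p-values were adjusted by Benjamini-Hochberg over all genes at 0.05. The fits were tested on simulated data. Genes named from a list are the 3 with the largest change among those that passed at TCR 6 h. Klf13, Ccl7, Cxcl10 and the cell type markers are exceptions. For each chemokine, 4 genes are named as nearest. The chemokine genes, lists and tests were chosen with earlier results of these data known. A ratio to a dim spot uses its own value, or the lowest signal well above background on that array where that was higher. Plots used Python 3.11.15 and matplotlib 3.10.9. Alternatives covered normalization, background, filter, slide, naming and left-out arrays. Of the receptor genes, 1 is not reported here.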

Additional observations from a re-analysis of the deposited data

Results flagged for a closer look

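The IFNβ difference of Ccl1 had opposite signs at the 2 TCR times, -2.74 (log2) at TCR 1 h and 1.13 at TCR 6 h, between single arrays. The difference between the 2 was tested in the interaction model at 3.86 ± 0.49 and did not pass (adjusted p = 0.35 with limma). Ccl1 was not well above background on the array for IFNβ with TCR 1 h, and under the scanner files' naming of that pair both values are positive.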

How the results depend on the processing

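The calls of Ccl3 at TCR 1 h and of Xcl1, Ccl3, Ccl4 and Ccl1 at TCR 6 h kept their direction and passed under each alternative that gave a value. The fitted values of Ccl1 include 4 arrays on which it was not well above background. Ccl1 has none when probes must be well above background on all arrays, which leaves 1 of 4 remaining chemokine genes called from 1 h to 6 h (2 of 5 otherwise, 0 with slide as a block, and 0 to 3 with 1 array left out). The number of arrays, 1 per treated condition, and the weak signal of Ccl1 set the limits, and without either IFNβ-alone array the interaction has no residual degree of freedom and no test. The causes of the changes below were not tested.

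Over all genes 826 passed at TCR 1 h. The count was 2534 with the untreated arrays as separate samples, 1867 with normexp and quantile normalization (42.2% of them higher, 59.3% otherwise), 1661 with probes well above background on all arrays, 532 with no filter, 429 on slide 1 alone, 356 under the scanner files' naming and 30 to 810 with 1 array left out (30 without TCR 1 h, 85 without IFNβ with TCR 1 h, 86 and 115 without IFNβ 2 h and 7 h). At TCR 6 h 8921 passed, and 4695 to 8888 with 1 array left out, the lowest without IFNβ with TCR 6 h. From 1 h to 6 h 6324 passed, 2789 with slide as a block, and 2780 to 6323 with 1 array left out (2780 and 2978 without the IFNβ arrays at TCR 1 h and 6 h, 3816 without TCR 1 h). For IFNβ 10 passed, against 279 on slide 1 alone, 84 with the untreated arrays separate, 74 with the strict filter, 50 with slide as a block, 47 with median scaling, 20 with the deposited series values, and 0 with quantile normalization, normexp, slide 2 alone, the scanner files' naming or no TCR 1 h pair. With 1 array left out it was 0 to 275, at 275 without either TCR 6 h array and 0 without any of the other 4 treated arrays. Median scaling moved the median of all genes to 0.37 at TCR 6 h and 0.35 from 1 h to 6 h.

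Estimates that changed sign were these, none of which had passed. Under the scanner files' naming the IFNβ difference was 1.17 for Xcl1, 0.87 for Ccl1 and 0.55 for Ccl4. The interaction at TCR 1 h was then 3.35 for Xcl1, 3.47 for Ccl1, 0.55 for Ccl3 and 0.65 for Ccl4, with 65 genes called. The IFNβ difference at 6 h less that at 1 h was -3.05, -1.61, -1.50 and -1.16 in that order, and the single-array difference at TCR 1 h 3.43, 2.74, 1.74 and 1.16. On slide 2 alone the IFNβ difference was 0.29 for Xcl1, 0.16 for Ccl1 and 0.24 for Ccl4, and without the TCR 1 h pair, or either array of it, 0.20, 0.064 and 0.29 (lowest with 1 array left out -1.43 for Xcl1 and -1.59 for Ccl1, without either TCR 6 h array). For Ccl3 it was -0.61 on slide 1 alone, -0.013 with median scaling, -0.064 with normexp, -0.31 without IFNβ 7 h and -0.066 without either TCR 6 h array (highest with 1 array left out 0.78, without either TCR 1 h array). For Ccl5 the interaction at TCR 6 h was 0.17 with median scaling, 0.21 with quantile normalization, 0.18 with normexp and 0.13 with the mean of its probes. The Ccl5 difference from 1 h to 6 h was 0.19 with median scaling, 0.38 without TCR 1 h and 0.083 without TCR 6 h (lowest -0.55), and at TCR 1 h it was 0.16 without IFNβ with TCR 1 h (lowest -0.77).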
